A study of Homo sapiens with 24 samples.

Results

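NR0B1 and the 3 nuclear receptors closest to it in structure or function, NR0B2, NR5A1 and NR5A2, are 4 of the 60563 named genes counted in H1299 cells that stably express a Δ133p53 isoform. The set was put together around NR0B1, which was selected on these counts because it was higher in the Δ133p53 cell lines than in control. Its difference from control is therefore given as a description, with no test. All 4 genes were listed in every library, and 2 of them, NR0B1 and NR5A2, passed the filter on low counts that a gene needs to enter a test.

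H1299 cells derive from a human non-small cell lung cancer and are p53 null, a background that all groups share. The control is H1299 carrying the vector alone. Each Δ133p53 cell line is a single clone that received a plasmid for 1 isoform: Δ133p53α1, Δ133p53α2 and Δ133p53α8 express Δ133p53α, and Δ133p53β5 and Δ133p53β10 express Δ133p53β. Poly(A) RNA of each line was sequenced in 4 libraries, 24 in all. With 1 control line, an effect of an isoform and a difference between lines cannot be told apart. Whether the 4 libraries of a line came from separate cultures is not stated, so p-values measure the spread between these libraries, which may be technical. In bulk RNA, fewer expressing cells and less RNA per cell cannot be told apart either.

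NR0B1, also called DAX1, is an unusual nuclear receptor that has the ligand-binding fold but no classical DNA-binding domain. It acts mainly as a corepressor that binds other receptors, above all NR5A1 and NR5A2, and the same holds for its closest relative NR0B2, also called SHP. NR5A1 is the master regulator of steroid synthesis in adrenal cortex and gonad, and NR5A2 acts in liver, pancreas and the early embryo. NR0B1 is normally found in those steroid-producing tissues and in embryonic stem cells, and it has been described in some lung cancer cells.

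NR0B1 (ENSG00000169297) lies on the minus strand of the X chromosome at chrX:30304206-30309390 (GRCh38) and has 2 exons. NR0B2 (ENSG00000131910) lies at chr1:26911489-26913975 on the minus strand, NR5A1 (ENSG00000136931) at chr9:124481236-124507420 on the minus strand, and NR5A2 (ENSG00000116833) at chr1:200027614-200177420 on the plus strand. The 250 bases upstream of the NR0B1 start site (chrX:30309391-30309640, minus strand, GRCh38.p14, from RefSeq) are shown because NR0B1 is the member whose transcript differed most between control and the Δ133p53 cell lines. The capitals mark AGGTCA, the half-site many nuclear receptors bind, and TATAAA, the TATA box.
NR0B1 promoter: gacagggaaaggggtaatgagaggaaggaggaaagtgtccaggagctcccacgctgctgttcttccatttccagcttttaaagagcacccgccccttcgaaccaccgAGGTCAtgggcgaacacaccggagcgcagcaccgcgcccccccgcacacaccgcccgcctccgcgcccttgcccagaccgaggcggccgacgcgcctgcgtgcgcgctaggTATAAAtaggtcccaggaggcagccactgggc
AGGTCA begins 143 bases before the start site and TATAAA 32 bases before it. Both strands of 35116 RefSeq promoters of the same length were searched, and 12.1% hold AGGTCA and 10.7% hold TATAAA. The longer form preferred by the NR5A receptors, CAAGGTCA, which contains the AGGTCA half-site, is held by 1.14% of promoters and its letters are not in this window. The NR0B1 promoter is 65.2% G and C, against a median of 58% over all promoters. Its ratio of observed to expected CpG is 0.833, above that of 73.6% of promoters. These matches describe the sequence and say nothing about binding.

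Libraries held between 21531599 and 25381731 counted reads. They fell into 2 sets of 12 that do not follow the cell lines. In one set, genes with longer transcripts were relatively high (rank correlation with length across genes, 0.187 to 0.304), and in the other they were relatively low (-0.269 to -0.117). Every line had libraries in both sets. Of the 4 libraries per line, 3 were in the positive set for Δ133p53α2, Δ133p53α8 and control, and 1 for the other lines. For 1 library the clone is uncertain: by the sample titles it is a 5th library of Δ133p53β10, by the header of the count table it is replicate 4 of Δ133p53β5, and it was kept in Δ133p53β5. All 6 markers of H1299 cells were above 3 counts in each line. They ran from ZEB1, at 7.37 to 39 CPM (counts scaled to library size, with TMM), to VIM, at 1740 to 5180 CPM. Markers of adrenal cortex and gonad, the tissues NR0B1 is known from, summed to between 0.125 and 1.37 CPM, and HSD3B2 was at 0 in all 24 libraries. Normal lung epithelium markers summed to between 0.0411 and 0.702 CPM and leukocyte markers to at most 0.684 CPM, with SFTPA1, SCGB1A1, PTPRC and CD3E at 0 in all 24 libraries. Of the 5 hepatocyte markers only SERPINA1 went above 3 counts, and it alone carried their sum of 2.77 to 34.2 CPM.

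NR0B1 was at or under 3 reads in the control libraries and well counted in every Δ133p53 library. The control libraries had 1, 2, 3 and 1 reads. Δ133p53α1 had 202, 233, 273 and 262 reads, Δ133p53α2 had 181, 136, 130 and 139, and Δ133p53α8 had 186, 233, 150 and 139. Δ133p53β5 had 150, 128, 140 and 154 reads, and Δ133p53β10 had 98, 132, 164 and 200. The lowest Δ133p53 library, with 98 reads, was far above the highest control library, with 3, and the groups did not overlap.

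In CPM, NR0B1 averaged 0.0696 ± 0.0357 in control (SD, n = 4). It averaged 12.4 ± 3.07 in Δ133p53α1, 7.71 ± 2.25 in Δ133p53α8, 6.84 ± 2.1 in Δ133p53β10, 6.79 ± 2.38 in Δ133p53α2 and 6.63 ± 0.893 in Δ133p53β5 (SD, n = 4 each). The means of the 4 lines after Δ133p53α1 in this order differed by less than the SD of Δ133p53α8. Because no control library exceeded 3 reads, the fold was computed against 3 reads per control library, which is 0.121 CPM. It is a lower bound at that fixed floor, the highest control count. It is not a confidence limit and leaves out error beyond counting. On this basis NR0B1 was at least 103-fold higher in Δ133p53α1, at least 63.9-fold in Δ133p53α8, at least 56.7-fold in Δ133p53β10, at least 56.3-fold in Δ133p53α2 and at least 55-fold in Δ133p53β5. The lowest single library, in Δ133p53β10, was still at least 33.6-fold higher.

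**Figure D1:**
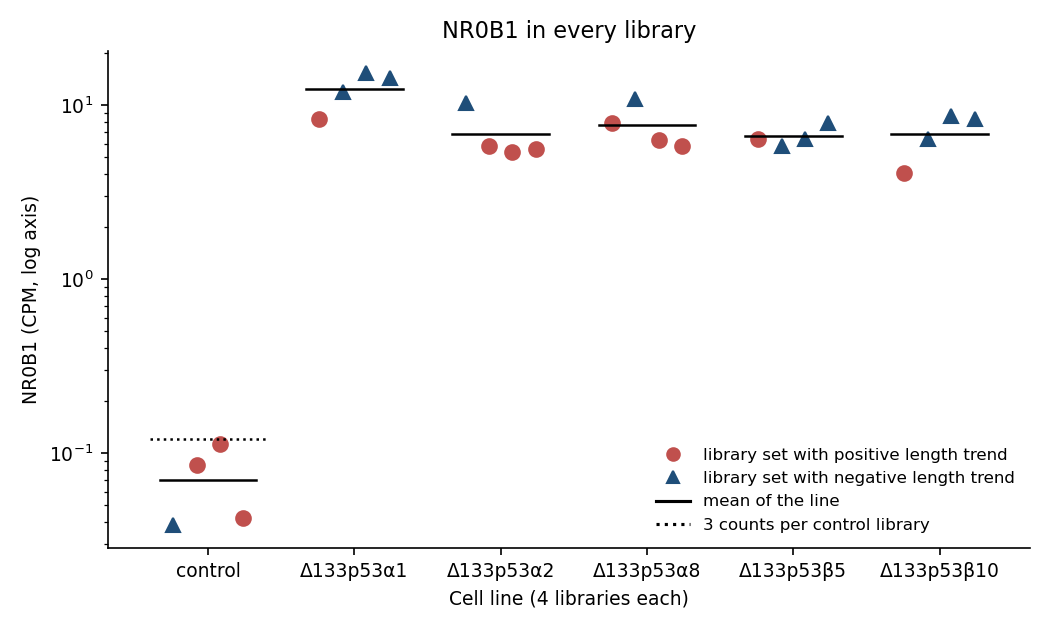
NR0B1 in CPM (log axis) in each of the 4 libraries of control and of the 5 Δ133p53 cell lines. Red circles are libraries of the set with a positive trend with gene length and blue triangles those of the negative set, solid lines are the means of the lines, and the dotted line is 3 counts per control library (0.121 CPM). The Δ133p53 libraries sit between 4.06 and 15.2 CPM and the control libraries at or below 0.113 CPM.

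The next question was whether NR0B1 differed between the isoforms. The 12 Δ133p53α libraries ranged from 5.34 to 15.2 CPM with a median of 8.12, and the 8 Δ133p53β libraries ranged from 4.06 to 8.63 CPM with a median of 6.4. The ranges overlapped. The mean of the Δ133p53β cell lines was lower than that of the Δ133p53α cell lines by a log2 fold change of -0.36 (SE 0.182, 95% interval -0.74 to 0.02), which did not pass the test (edgeR quasi-likelihood test, adjusted p = 0.306). Over single libraries the difference was -0.35 on the log2 scale (exact two-sided permutation test, p = 0.126). Over the means of the 5 clones it did not pass either (exact two-sided permutation test, p = 0.7), and with 10 possible splits this design cannot go below 0.1.

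The isoforms were further apart within the negative set of libraries. There the 5 Δ133p53α libraries ranged from 10.3 to 15.2 CPM and the 6 Δ133p53β libraries from 5.82 to 8.63 CPM, and the groups did not overlap. The difference was -0.78 on the log2 scale (exact two-sided permutation test, p = 0.00216, the smallest possible, and 0.00864 after adjustment over the 4 permutation tests of NR0B1). In the positive set the 7 Δ133p53α libraries ranged from 5.34 to 8.34 CPM and the 2 Δ133p53β libraries were at 4.06 and 6.4 CPM (difference -0.32, exact two-sided permutation test, p = 0.25). The edgeR fit of each set alone did not pass, at -0.66 in the negative set (SE 0.183, adjusted p = 0.116) and -0.42 in the positive set (SE 0.222, adjusted p = 0.634). With the set as a term in the fit of all 24 libraries, the log2 fold change was -0.54 (SE 0.136, edgeR, adjusted p = 0.0111), below the fold threshold of 1.5 used for calls. These tests exchange libraries and not clones, and 3 of the 5 Δ133p53α libraries of the negative set came from Δ133p53α1. The tests within each set were chosen after seeing the data, and the adjustment over 4 tests does not cover that choice. In each of the 5 Δ133p53 cell lines NR0B1 was higher in the negative set, by 0.06 to 0.91 on the log2 scale. The part of the sets in these values was tested only by that term.

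Between clones of the same isoform, Δ133p53α1 had the highest values. Δ133p53α2 minus Δ133p53α1 gave a log2 fold change of -0.87 (95% interval -1.46 to -0.28, edgeR, adjusted p = 0.16) and Δ133p53α8 minus Δ133p53α1 gave -0.69 (-1.28 to -0.10, edgeR, adjusted p = 0.174), so neither passed. Δ133p53α8 minus Δ133p53α2 gave 0.19 (-0.40 to 0.77, edgeR, adjusted p = 0.998) and Δ133p53β10 minus Δ133p53β5 gave 0.04 (-0.54 to 0.63, edgeR, adjusted p = 1). Leaving out replicate 1 of Δ133p53α1, its lowest library, brought the adjusted p of Δ133p53α8 minus Δ133p53α1 to 0.0481 (edgeR) at a log2 fold change of -0.84. That replicate is the line's only library of the positive set, so this fit leaves Δ133p53α1 with negative-set libraries alone. With the set as a term, Δ133p53α8 minus Δ133p53α1 was -0.38 (edgeR, adjusted p = 0.376). Δ133p53α2 minus Δ133p53α1 was then -0.58 (edgeR, adjusted p = 0.177). NR0B1 in replicate 1 of Δ133p53α2, the only library of this line in the negative set, was 10.3 CPM, against 5.34 to 5.84 CPM in the other libraries of the line.

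The NR5A receptors, which NR0B1 is best known to bind, were scarce in all lines. NR5A1, the main partner of NR0B1 in steroid-producing tissue, had 0 reads in all 4 control libraries, which allows up to 3 reads per library, or up to 0.128 CPM. It had 5 reads in all over the 12 Δ133p53α libraries, 4 of which had any, with at most 2 in 1 library, and 0 in the 8 Δ133p53β libraries. No difference in NR5A1 was detectable at this depth, and it did not enter a test.

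NR0B2, the corepressor most like NR0B1, was near the limit of detection as well. Control libraries had 0, 0, 2 and 0 reads. Δ133p53α1 had 3, 1, 2 and 0 reads, Δ133p53α2 had 2, 2, 1 and 0, and Δ133p53α8 had 0, 1, 1 and 0. Δ133p53β5 had 1, 0, 0 and 1 reads, and Δ133p53β10 had 2, 2, 0 and 1. No library exceeded 3 reads and the groups overlapped, so no fold is given. NR0B1 and NR0B2, though related, therefore stood at very different levels in the Δ133p53 libraries, with 3430 reads in all for NR0B1 and 20 for NR0B2.

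NR5A2 was low but present in every library. Control had 20, 6, 5 and 9 reads. Δ133p53α1 had 17, 13, 4 and 20 reads, Δ133p53α2 had 1, 16, 8 and 15, and Δ133p53α8 had 9, 8, 11 and 14. Δ133p53β5 had 8, 3, 4 and 3 reads, and Δ133p53β10 had 11, 6, 3 and 5. The control range of 5 to 20 reads overlapped that of every other line. Δ133p53β5 met it only through replicate 1, with 8 reads.

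Against control, the log2 fold change of NR5A2 was 0.74 (SE 0.53) in Δ133p53α1, 0.10 (SE 0.538) in Δ133p53α2, 0.17 (SE 0.537) in Δ133p53α8, -0.94 (SE 0.581) in Δ133p53β5 and -0.50 (SE 0.561) in Δ133p53β10. No line passed the test, with edgeR adjusted p between 0.328 in Δ133p53β5 and 0.964 in Δ133p53α2, and the widest 95% interval, in Δ133p53β5, ran from -2.16 to 0.28. The Δ133p53β minus Δ133p53α difference of NR5A2 was -1.06 (SE 0.374, 95% interval -1.84 to -0.27), with an unadjusted p of 0.00981 and an adjusted p of 0.113 over all tested genes (edgeR). The 8 Δ133p53β libraries had a median of 4.5 reads and the 12 Δ133p53α libraries a median of 12, and the ranges of 3 to 11 and 1 to 20 reads overlapped. With the library set as a term the difference was -0.96 (SE 0.379, edgeR, adjusted p = 0.117). Within the positive set alone it was -0.52 and within the negative set alone -0.37 (edgeR), where some lines have a single library. Without replicate 1 of Δ133p53α2, which had 1 read, it was -1.17 with an adjusted p of 0.0345 (edgeR), still below the fold threshold.

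**Figure D2:**
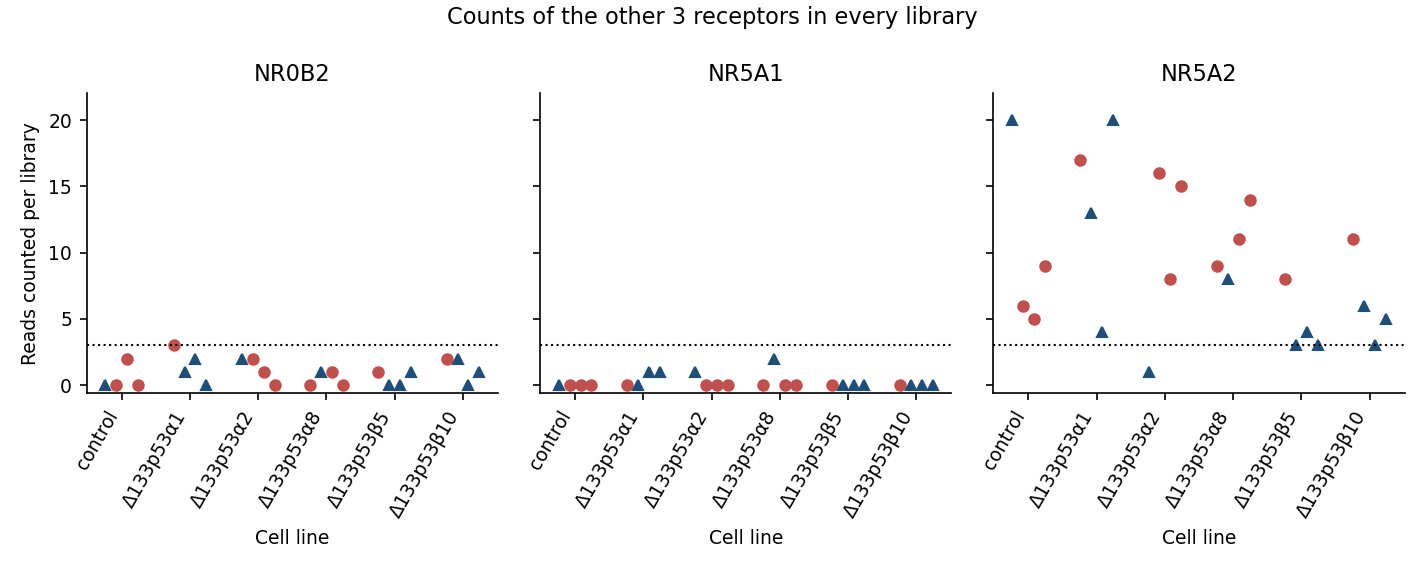
Reads of NR0B2, NR5A1 and NR5A2 in each of the 24 libraries by cell line, with red circles for the positive and blue triangles for the negative set of libraries and a dotted line at 3 counts. NR0B2 and NR5A1 stay at or under 3 counts in all libraries, and NR5A2 lies between 1 and 20 counts with control spanning 5 to 20.

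To compare levels between genes, CPM was divided by the exonic length of each gene in kilobases. On this scale NR0B1 was 32nd of the 48 human nuclear receptor genes in control, at 0.0349 ± 0.0179 (SD, n = 4). It was 6th in Δ133p53α1, at 6.23 ± 1.54, 13th in Δ133p53α8, at 3.86 ± 1.13, and 14th in Δ133p53α2, Δ133p53β5 and Δ133p53β10, at 3.4 ± 1.19, 3.32 ± 0.448 and 3.43 ± 1.05 (SD, n = 4 each). NR2F6, an orphan receptor that acts mainly as a repressor, ESRRA, a regulator of mitochondrial genes, and RXRB, a common dimer partner, ranked highest in all 6 groups, with NR2F6 between 17.3 and 34.2. The length-scaled level of NR5A2 was between 0.027 and 0.0886, of NR0B2 between 0.0161 and 0.0614 and of NR5A1 at most 0.00808. The other 3 receptors ranked between 28 and 43 of 48 in all 6 groups.

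**Figure D3:**
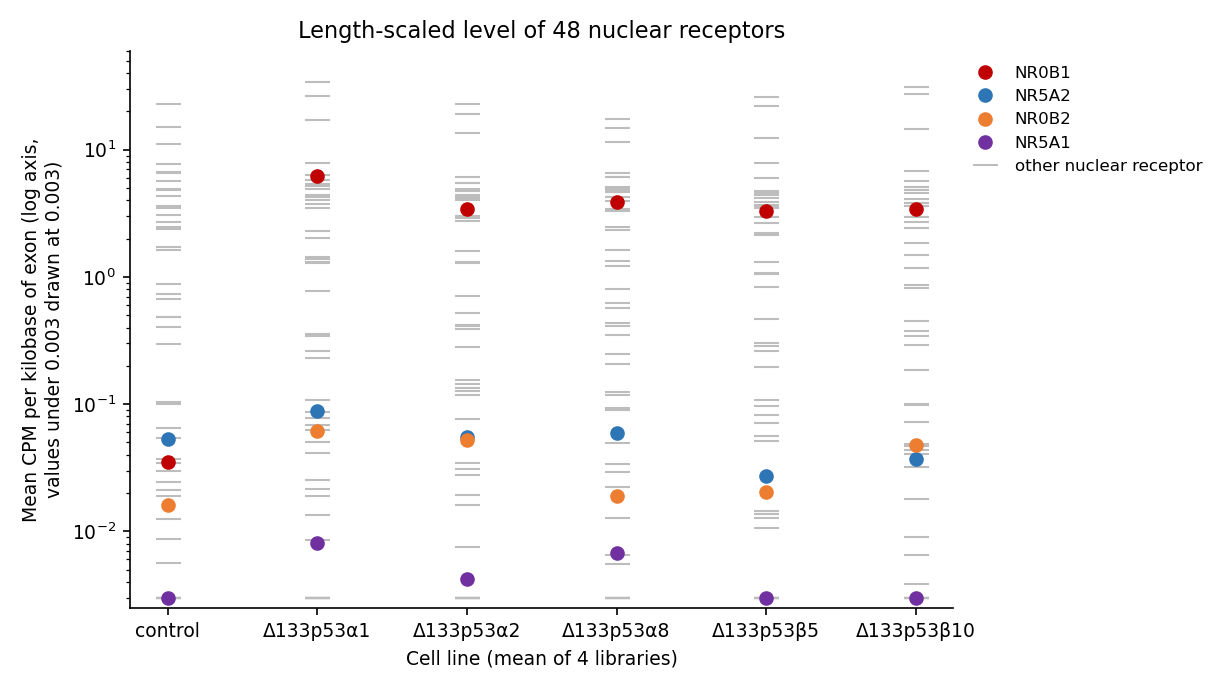
Mean CPM per kilobase of exon (log axis) of 48 nuclear receptor genes in each cell line, with the 4 receptors described here in colour and the others as grey dashes. NR0B1 stands at 0.0349 in control and between 3.32 and 6.23 in the Δ133p53 cell lines, and the other 3 stay under 0.1 throughout.

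Few other nuclear receptors were called against control. All 48 genes were in the count table, 4 had 0 reads in all libraries, and 34 passed the filter on low counts. NR0B1 was selected on this contrast and is left out of the following counts, which cover the other 33. A gene was called where the edgeR adjusted p was under 0.05 and the log2 fold change was 1.5 or more, up or down. In Δ133p53α1, 0 receptors were called up and 1 down, where 2.46% of all tested genes were called. In Δ133p53α2, 2 were called up and 0 down, with 2.63% of all genes called, and in Δ133p53α8 again 2 up and 0 down, with 2.37% of all genes. Δ133p53β5 and Δ133p53β10 each had 1 called up and 0 down, with 4.32% and 4.6% of all genes called. Those shares of 33 genes come to about 1 or 2 genes, so 0 to 2 calls are no result about the receptors as a group. The median log2 fold change of the 33 was between 0.05 and 0.17 over the lines, beside -0.05 to 0.03 for all tested genes.

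PPARG, the receptor that drives fat cell differentiation, was the receptor called up in most lines among these 33. Control libraries had 2, 10, 17 and 15 reads. Δ133p53α1 had 32, 28, 20 and 6 reads, Δ133p53α2 had 31, 52, 45 and 26, and Δ133p53α8 had 59, 41, 60 and 71. Δ133p53β5 had 83, 54, 41 and 29 reads, and Δ133p53β10 had 51, 66, 60 and 9. Only Δ133p53α2, Δ133p53α8 and Δ133p53β5 lay wholly above control.

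PPARG rose in Δ133p53α8 (log2 fold change 2.47, SE 0.563, adjusted p = 0.0105), Δ133p53β5 (2.39, SE 0.563, adjusted p = 0.00799) and Δ133p53β10 (2.30, SE 0.563, adjusted p = 0.0111) by edgeR. In Δ133p53α2 it was 1.95 (SE 0.562, edgeR, adjusted p = 0.0449), a call that was lost under 16 of 32 alternatives, with adjusted p up to 0.111. In Δ133p53α1 the value was 1.24 (SE 0.568, edgeR, adjusted p = 0.178), not called. The length-scaled level of PPARG stayed low, at 0.0371 in control and at most 0.207 in Δ133p53α8.

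THRB, a thyroid hormone receptor, rose in Δ133p53α8 (log2 fold change 3.05, SE 0.543, edgeR, adjusted p = 0.00113) and Δ133p53α2 (2.16, SE 0.539, edgeR, adjusted p = 0.0187). It had 5 to 10 reads in control, 17 to 46 in Δ133p53α2 and 21 to 89 in Δ133p53α8, without overlap. The call in Δ133p53α2 was lost without replicate 4 of that line or without replicate 1 or 3 of control, with adjusted p up to 0.0604 (edgeR). In Δ133p53α1 THRB was at 0.80 (SE 0.557, edgeR, adjusted p = 0.338), not called, and its 3 to 28 reads overlapped control. In Δ133p53β5 THRB was at 1.70 (SE 0.542, edgeR, adjusted p = 0.0505) and in Δ133p53β10 at 1.30 (SE 0.546, edgeR, adjusted p = 0.129), not called. In Δ133p53β5 it was called under 8 of 32 alternatives, at 1.69 to 2.24, among them DESeq2 (1.70, adjusted p = 0.0219), without the library of uncertain clone (2.01, edgeR, adjusted p = 0.0175) and with the library set as a term (2.24, edgeR, adjusted p = 0.00119). In Δ133p53β10 it was called only with the library set as a term (1.83, edgeR, adjusted p = 0.00812). In all 5 Δ133p53 cell lines THRB was lower in the negative than in the positive set, with log2 ratios of the set means from -1.76 to -0.52.

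PPARA, which controls fatty acid oxidation, fell in Δ133p53α1 (log2 fold change -1.54, SE 0.38, edgeR, adjusted p = 0.0195). Control libraries had 99, 242, 392 and 161 reads and Δ133p53α1 had 133, 37, 42 and 46, so replicate 1 of Δ133p53α1 overlapped control. That replicate is the line's only library of the positive set and the 99-read control library is the only one of the negative set. With the set as a term the value was -1.15 (edgeR, adjusted p = 0.0158), below the fold threshold, and the call was lost in 7 of 32 alternatives. PPARA passed the adjusted p but not the fold threshold in Δ133p53β5 (-1.23, edgeR, adjusted p = 0.0412) and Δ133p53β10 (-1.20, edgeR, adjusted p = 0.0446).

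**Figure D4:**
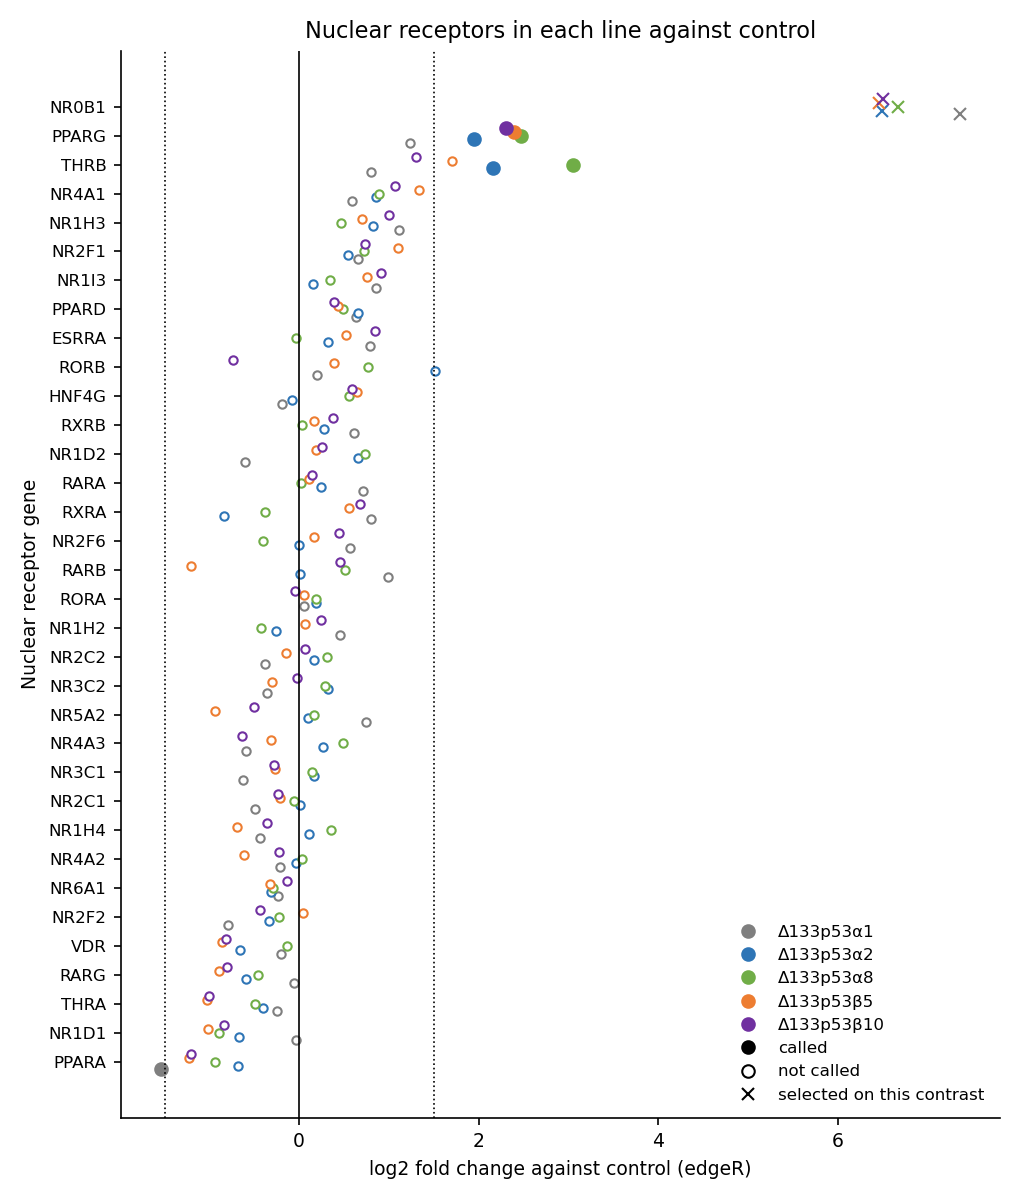
Log2 fold change of the 34 tested nuclear receptor genes against control in each of the 5 Δ133p53 cell lines, with filled circles for called genes, open circles for others and dotted lines at 1.5 in either direction. NR0B1, selected on this contrast and shown as crosses with no call, lies between 6.46 and 7.36 as fitted values against a control at or under 3 counts, PPARG is called in 4 lines, THRB in 2 and PPARA in 1.

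Between the isoforms, 0 of the 34 receptors were called, where 1.32% of all tested genes were, and 10 had an unadjusted p under 0.05 (edgeR). DESeq2 and limma voom also called 0. At the adjusted p alone, 2 passed: RXRA, the dimer partner of PPARG and other receptors, at 0.75 (SE 0.189, edgeR, adjusted p = 0.0181) for Δ133p53β minus Δ133p53α, and THRA, the other thyroid hormone receptor, at -0.64 (SE 0.154, edgeR, adjusted p = 0.0138). Of all 17990 tested genes, 977 passed the adjusted p, and at that share 2 of 34 is not a result about the receptors as a group. RXRA differed more between Δ133p53α clones than between the isoforms, with Δ133p53α2 minus Δ133p53α1 at -1.64 (SE 0.304, edgeR, adjusted p = 0.00662). Its mean of 15.5 CPM in Δ133p53α1 was above the 13 CPM of Δ133p53β5 and the 14.2 CPM of Δ133p53β10, and those of Δ133p53α2 and Δ133p53α8 were 4.99 and 6.86 CPM. ESR2, the second estrogen receptor, had too few reads for the main filter, with 6 to 10 in control, 4 to 14 in the Δ133p53α libraries, 2 to 5 in Δ133p53β5 and 0 to 2 in Δ133p53β10. Where settings let it in, it was called lower in Δ133p53β than in Δ133p53α under 24 of 32 alternatives, with log2 fold changes from -2.10 to -1.64 (edgeR). ESR2 was singled out after its values were seen.

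Genes that NR5A1 and NR5A2 are known to switch on were described next, from lists put together on textbook knowledge. The lists were chosen with earlier results of these data known. Of 28 genes of steroid synthesis and gonad function, 8 had 0 reads in all libraries, 9 were tested, and 0 were called in any line by edgeR, with 1 to 4 at an unadjusted p under 0.05. Over the 5 lines 2.37% to 4.6% of all tested genes were called, and at those shares 0 calls among 9 genes is not a result about these genes. Their median log2 fold change was between -0.15 and 0.50 over the lines. FDX1, the ferredoxin that passes electrons to the steroid hydroxylases, passed the adjusted p below the fold threshold in Δ133p53β5 (0.89, SE 0.2, edgeR, adjusted p = 0.00555) and Δ133p53β10 (0.77, SE 0.2, edgeR, adjusted p = 0.0163). CYP11A1, the first enzyme of the pathway, had 1 to 18 reads and MC2R, the receptor for the adrenal hormone ACTH, at most 1. Of 19 bile acid and lipid genes known from NR5A2 and NR0B2, 5 were tested and 0 were called in any line by edgeR where 2.37% to 4.6% of all tested genes were, with at most 1 at an unadjusted p under 0.05.

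The 21 coregulators and binding partners of NR0B1 were all expressed well enough to be tested, and 0 were called in any line by edgeR where 2.37% to 4.6% of all tested genes were, with 3 to 8 at an unadjusted p under 0.05. Their median log2 fold change was between -0.37 and 0.14. SNW1, a transcriptional coregulator and splicing factor, passed the adjusted p in Δ133p53α2, Δ133p53α8 and Δ133p53β5, at 0.54 to 0.57, and HDAC1, a histone deacetylase, at -0.56 in Δ133p53α2 and -0.54 in Δ133p53α8, all below the fold threshold.

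In the network that sets gonad fate, where NR0B1 counters the testis programme, 16 of 30 genes were tested. By edgeR 1 of the 16 was called in each line, where 2.37% to 4.6% of all tested genes were. At those shares 1 call is not a result about the list. SOX9, the central testis-determining factor, was called down in all 5 lines and was the only gene of the list called. It had 565 to 1892 reads in control and at most 1 in each library of Δ133p53α1, Δ133p53α2, Δ133p53α8 and Δ133p53β5, at least 292-fold lower. In Δ133p53β10 it had at most 5 reads, and its fitted log2 fold change was -9.24 (SE 0.68, edgeR). The paper already reports SOX9 as decreased in all its Δ133p53 cell lines. The call of SOX9 was therefore known beforehand and is a description. NR0B1 was higher and SOX9 lower in the same 5 lines, each against the same 4 control libraries, and NR0B1 was selected on this contrast. A link between NR0B1 and SOX9 was not tested. With 1 control line it cannot be told apart from a difference between lines. LEF1, which carries Wnt signals to DNA, passed the adjusted p below the fold threshold in Δ133p53α2 (1.14), Δ133p53α8 (1.05) and Δ133p53β10 (0.92). KEAP1 and NFE2L2, which set the oxidative stress response, were among the genes of this list that were not called.

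Of 16 pluripotency factors that work with NR0B1 in stem cells, 9 were tested. By edgeR 1 was called in Δ133p53α2, 1 in Δ133p53β5, 0 in the other lines and 1 between the isoforms. Of all tested genes 2.63% were called in Δ133p53α2, 4.32% in Δ133p53β5 and 1.32% between the isoforms. At those shares 1 call among 9 genes is not a result about the list. SOX2, a core factor of this network, fell in Δ133p53β5 (log2 fold change -1.98, SE 0.569, edgeR, adjusted p = 0.029). It had 35 to 83 reads in control and 5 to 24 in Δ133p53β5, without overlap, and the call was lost under 8 of 32 alternatives, among them without the library of uncertain clone (-1.73, edgeR, adjusted p = 0.0922). In Δ133p53β10 SOX2 was at -1.66 (SE 0.558, edgeR, adjusted p = 0.061), not called, and with the uncertain library counted in Δ133p53β10 it was called at -1.86 (edgeR, adjusted p = 0.0224). TBX3, a repressor that supports stem cell renewal, was at 0 in all 4 libraries of Δ133p53α2, against 25 to 47 reads in control, and was at least 11.1-fold lower. TBX3 had 6 to 23 reads in Δ133p53α1 and 13 to 35 in Δ133p53α8. The Δ133p53β minus Δ133p53α difference of TBX3, 2.15 (SE 0.498, edgeR, adjusted p = 0.0127), was read against a Δ133p53α mean that includes the 0 reads of Δ133p53α2. The means were 0.546 CPM in Δ133p53α1 and 1.06 CPM in Δ133p53α8, beside 0.674 CPM in Δ133p53β5 and 0.638 CPM in Δ133p53β10. By limma voom it was 1.21 with an adjusted p of 0.125.

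The genes around NR0B1 on the X chromosome were examined to see whether the whole region moved. Within 1 Mb of NR0B1 the annotation lists 23 other genes, all of them in the count table, and 12 had 0 reads in every library. Among these silent genes were the nearest protein-coding neighbours, MAGEB1 at 52.2 kb, MAGEB4 at 60 kb and MAGEB3 at 66.7 kb. MAGEB2, a cancer-testis antigen gene 84.1 kb away, had 6, 12, 2 and 2 reads in Δ133p53β10 and at most 2 in any other library. Only 4 of these 23 genes passed the filter on low counts, so for most of the region a shift could not be tested.

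The tested neighbours were GK, glycerol kinase, with its antisense transcript GK-AS1, and TAB3, an adaptor of inflammatory kinase signalling, with its antisense transcript TAB3-AS2. Of these 4, 0 were called in any line by edgeR where 2.37% to 4.6% of all tested genes were, with at most 2 at an unadjusted p under 0.05 in a line. GK had 91, 79, 100 and 68 reads in control, and its log2 fold change ran from 0.44 in Δ133p53α1 to 1.07 in Δ133p53α8 (SE 0.36, edgeR, adjusted p = 0.107). In CPM, all libraries of Δ133p53α8 and Δ133p53β5 were above every control library, and the other lines overlapped control. The log2 fold change of GK-AS1 ran from 0.77 in Δ133p53α1 to 1.31 in Δ133p53α8 (SE 0.439, edgeR, adjusted p = 0.105). The strand setting of the authors' counting is not given in the sources used here, so reads of GK and GK-AS1, and of TAB3 and TAB3-AS2, may not be told apart. TAB3 was at 16.2 to 29.7 CPM in the positive set and 4.89 to 14.7 CPM in the negative set, and the sets did not overlap. DMD, the dystrophin gene at the far end of the window, was too low for the main filter, with 2, 15, 17 and 10 reads in control and 0 in all 8 libraries of Δ133p53α2 and Δ133p53α8. It was singled out after its values were seen, and where settings let it in it was called down in both lines under 24 of 32 alternatives.

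The genes whose pattern was most like that of NR0B1 were looked up by Pearson correlation of log2 CPM over 14913 genes, as a description. The libraries share depth, lines and sets, so they are not independent points. Over all 24 libraries the closest were CTPS2, an enzyme of CTP synthesis (0.963), RSPO4, a secreted activator of Wnt signals (0.952), BASP1, a membrane-bound cytoskeletal protein that also acts as a corepressor (0.947), SPECC1 (0.93) and ZNF22, a zinc finger protein (0.927). CTPS2 had the same form as NR0B1, with at most 2 reads in control and 73 to 261 in the Δ133p53 libraries, whereas SPECC1 was well expressed in control at 13.9 ± 1.5 CPM (SD, n = 4). RSPO4 was, like NR0B1, highest in Δ133p53α1, at 4.57 ± 1.78 CPM (SD, n = 4) against means of 1.77 to 2.11 CPM in the other Δ133p53 cell lines.

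Over the 20 Δ133p53 libraries alone, where the contrast with control plays no part, other genes were closest. They were PRKAR1B, a regulatory subunit of protein kinase A (0.932), USP11, a deubiquitinase (0.915), RCN3 (0.91), NME4, a mitochondrial nucleoside kinase (0.902), and NUMBL (0.897). All 5 were well expressed in control, from 3.78 ± 2.12 CPM for RCN3 to 177 ± 58.3 CPM for NME4 (SD, n = 4). Each was higher in the negative than in the positive set in 5 of 5 Δ133p53 cell lines, as was NR0B1, and the part of the sets in this likeness was not tested. By Spearman correlation, 1 of the 5 closest genes over 24 libraries, RSPO4, was among the 5 by Pearson correlation, and 0 of the 5 over 20 libraries were.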

How the data were processed

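Poly(A) RNA of 24 strand-specific libraries was sequenced by the authors. Per the paper's methods and the submitters' processing notes, reads were trimmed with Cutadapt, aligned to GRCh38 (hg38) with HISAT2 and counted per gene with featureCounts. The authors deposited raw counts per gene and library, without normalization, with genes named by symbol. The strand setting of the counting is not given in the sources used here. A single unnamed row, with 0 reads, was not used. No 2 libraries of a line repeat each other (lowest chi-square per degree of freedom 15.8 over 36 pairs).

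The 4 genes and all gene lists were chosen with earlier results of these data known. Tests used edgeR 4.0.16 in R 4.3.3 on the deposited counts, with TMM, filterByExpr, which kept 17990 genes, and 1 quasi-likelihood fit in which the 6 groups share 18 residual degrees of freedom. P-values were adjusted by Benjamini-Hochberg across every tested gene, and calls needed an adjusted p under 0.05 with a log2 fold change of 1.5 or more, up or down. Shares of all tested genes at an unadjusted p under 0.05 are not given, so counts at that level are no result about a list. Intervals are the log2 fold change ± 2.1 SE. On simulated counts the script was tested with 200 changed genes. Bounds and floors use a fixed 3 counts per library. They are not confidence limits and leave out error beyond counting, since reads carry no molecular identifiers. Named by rule were the 4 genes, list genes called in a line or between isoforms, called neighbours within 1 Mb, and the 5 genes most correlated with NR0B1. Other genes are named for a list's count or because they are said to be singled out. Positions are from GENCODE v44 and the promoter from RefSeq. Alternatives were DESeq2 1.42.0, limma 3.58.1 (voom), RLE size factors, no filter, the uncertain library moved or left out, the replicate number as a block, the library set as a term, and leaving out each library. Fits and permutation tests within each set were chosen after seeing the data. The study's methods name DESeq2, whereas the submitters' notes name limma. Replicate numbers did not pair the libraries.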

Additional observations from a re-analysis of the deposited data

Results flagged for a closer look

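Of 66 groups of 4 libraries examined over 12 genes, 5 held a library far from the other libraries of its line by Dixon's criterion, and chance alone picks out about 1 in 20 groups. All 5 cases fell on the line's only library of one set. NR0B1 in replicate 1 of Δ133p53α2 was 10.3 CPM, against 5.34 to 5.84 in the others. TAB3 in replicate 1 of Δ133p53α1 was 29.3 CPM, against 6.87 to 8.13, and in replicate 1 of Δ133p53α2 it was 5.66 CPM, against 21.8 to 24.4. TAB3-AS2 in replicate 1 of Δ133p53α1 was 2.73 CPM, against at most 0.152, and in replicate 2 of Δ133p53α8 it was 0.278 CPM, against 1.49 to 1.58. The part of the sets in these values was not tested. The Δ133p53β minus Δ133p53α log2 fold change of TBX3 was called at 2.15 by edgeR (adjusted p = 0.0127) and not by limma voom (1.21, adjusted p = 0.125). TBX3 was at 0 in all libraries of Δ133p53α2, whereas its means in Δ133p53α1 and Δ133p53α8, 0.546 and 1.06 CPM, lay on either side of the 0.674 and 0.638 CPM of the Δ133p53β cell lines.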

How the results depend on the processing

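The mean CPM of NR0B1 in each line moved by less than 1 SD with RLE size factors, without scaling and without each library. Its Δ133p53β minus Δ133p53α difference kept its direction in 34 of 34 alternatives (-0.66 to -0.27) and passed the adjusted p only with the library set as a term (-0.54). Without single libraries, Δ133p53α8 minus Δ133p53α1 ran from -0.89 to -0.57 and the isoform difference of NR5A2 from -1.24 to -0.95, each passing once, as given above. Against control NR5A2 passed in 0 of 32 alternatives in each line.

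Called nuclear receptors, here with NR0B1 counted, in Δ133p53α1 numbered 1 in place of 2 by limma voom, with the set as a term, and without replicate 2, 3 or 4 of the line or replicate 2 or 3 of control. They ranged from 1 to 3 in Δ133p53α2 without single libraries (1 without replicate 1 or 3 of control) and from 2 to 4 in Δ133p53β10 (4 without its replicate 1). Between the isoforms the count was 1 in place of 0 without the filter, with the uncertain library moved or left out, and in 21 of 24 fits without a library (0 to 1). The gene was ESR2 each time, which the filter admits once a group has 3 libraries.

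Among the other lists, calls in Δ133p53α1 went from 1 to 2 without the filter and ran from 1 to 8 without single libraries (8 without its replicate 1, 2 without replicate 1 of control). In Δ133p53α8 they were 2 without the filter. In Δ133p53β5 they fell from 2 to 1, through SOX2, with the uncertain library moved or left out, under the replicate block, and without replicate 2, 3 or 4 of the line or replicate 2 or 4 of control. In Δ133p53β10 they were 2 by DESeq2, 3 by limma voom, 2 with the uncertain library moved in, and 1 to 3 without single libraries (3 without its replicate 1, 2 without its replicate 4 or replicate 1 of Δ133p53α2).

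Neighbours of NR0B1 called went from 0 to 1 in Δ133p53α2, Δ133p53α8 and Δ133p53β5 without the filter, with the uncertain library moved or left out, and in 18 to 21 of 24 fits without a library (0 to 1), each time through DMD. They were 2 in Δ133p53β10 without the filter, and 0 to 2 in Δ133p53α1, 2 without its replicate 1. The same replicate number did not pair libraries: correlations of their deviations ran from -0.886 to 0.893, and 2 of 24 libraries correlated best with their own number. Besides SOX2 in Δ133p53β5, the replicate block ended the call of PPARG in Δ133p53α2 (1.86). At this depth NR0B2, NR5A1 and control NR0B1 are limited to 3 counts per library.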
